A study of Mus musculus with 6 samples.

Results

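Tuft cells are rare chemosensory cells of the intestinal epithelium. They sense luminal metabolites through a taste-like cascade that ends in the cation channel Trpm5, they need the POU-domain transcription factor Pou2f3 to form, and they make lipid mediators and the cytokine IL-25, with which they alert type 2 immune cells of the gut wall. The 8 genes described here are Pou2f3, Dclk1, Trpm5, Rgs13, Alox5ap, Ltc4s, Ptgs1 and Il25, chosen by name as tuft cell genes among 23284 genes of the count files. All 8 are in the files, and 7 had enough counts to be tested, Il25 being the exception.

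RNA of intestine (jejunum and ileum) was sequenced from SHP-KO mice and from wild-type (WT) mice, with 3 libraries each. SHP, the small heterodimer partner, is a nuclear receptor and corepressor encoded by Nr0b2, and the study's title names intestinal Npc1l1 and cholesterol uptake. All mice were 8-week-old males that were fasted overnight and then refed for 6 h. The labels name no strain, no design of the SHP allele and no cell type in which it was removed, and they leave unsaid whether each library is a different animal. P-values therefore reflect library-to-library spread alone, part or all of which may be technical.

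The libraries held 7956528 to 9289543 counts in SHP-KO and 11265437 to 13511800 in WT. Nr0b2 had 1, 0 and 0 counts in SHP-KO replicates 1 to 3, against 31, 14 and 23 in WT. The genotypes separated along a first principal component with 87.7% of the variance, and 8543 of 12106 tested genes (70.6%) differed at an adjusted p under 0.05 in edgeR's quasi-likelihood test. In SHP-KO 35.2% of tested genes were called higher and 35.4% lower. The counts of called genes in every list below stand against these shares. The epithelial markers Epcam, Krt8, Krt18, Krt19, Krt20, Vil1 and Cdh1 summed to 21867 to 21912 CPM (counts scaled to a common library size) in SHP-KO, against 21631 to 21840 CPM in WT. Of these 7 epithelial markers 3 rose, 3 fell and 1 did not pass. Krt19 fell 1.77-fold and Krt18 rose 1.47-fold, while the sum was mostly Epcam, Krt8, Krt20 and Vil1. All 6 listed markers of upper small intestine rose. Of 6 ileum markers 5 fell and 1 rose, by 2.20-fold. How much jejunum and how much ileum went into each library is not stated, so unequal proportions of these segments and SHP loss cannot be told apart for any gene below. In bulk tissue, fewer tuft cells and less RNA per tuft cell cannot be told apart either.

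The 8 tuft cell genes did not move as one group. Trpm5, Ltc4s and Ptgs1 rose in SHP-KO, Rgs13 and Dclk1 fell, and Pou2f3 and Alox5ap did not pass. Thus 5 of 7 tested genes (71.4%) were called, next to 70.6% of all tested genes and 60.7% of the 3650 tested genes whose total counts lay in the same range (70 to 489). The median log2 fold change of the 7 was -0.31, against -0.01 over all tested genes. CPM values did not overlap between the genotypes for 4 of the 7 tested genes (Trpm5, Ltc4s, Ptgs1 and Rgs13), beside 72.0% of all tested genes. Those of Il25, which was not tested, overlapped. No such share was computed among genes of like counts, so lower counts may account for part of that gap. No exon base of any of the 8 is shared with another gene of the annotation used for counting.

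**Figure D1:**
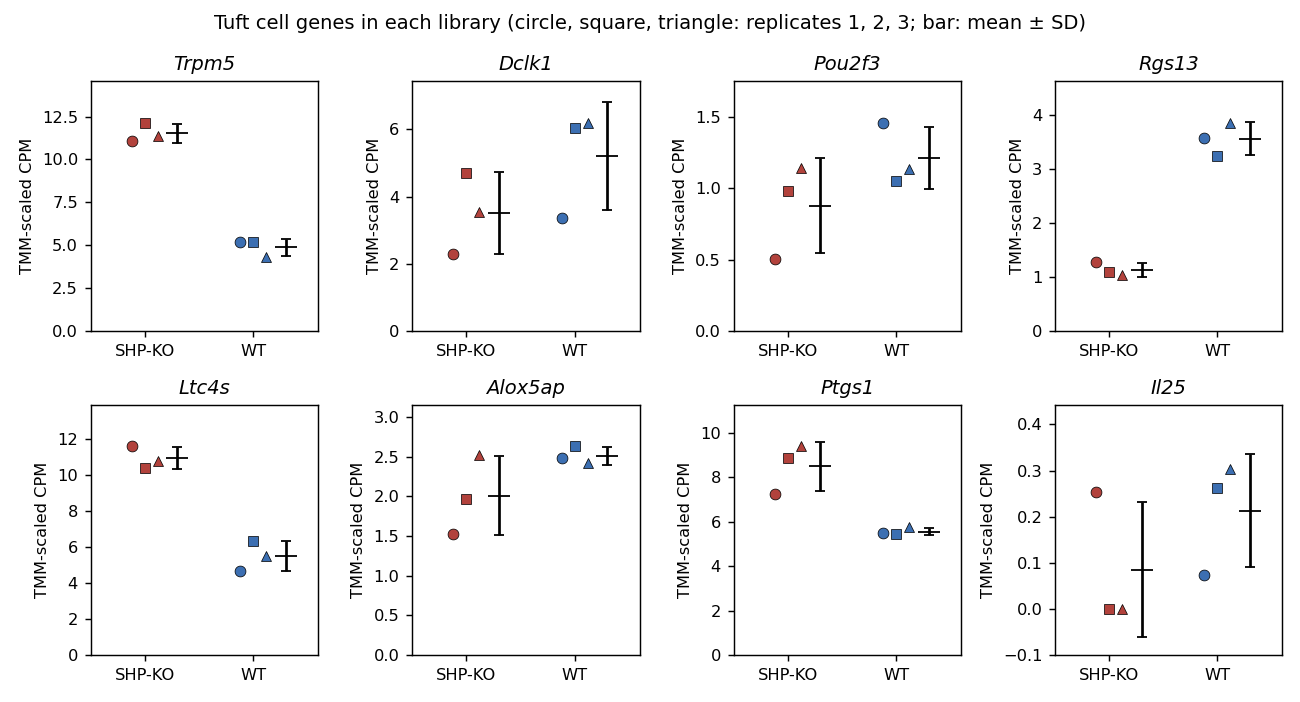
TMM-scaled CPM (vertical axes, linear, a scale of their own per gene) of the 8 tuft cell genes in each of 3 SHP-KO and 3 WT libraries, with bars for mean ± SD. SHP-KO libraries lie above all WT libraries for Trpm5, Ltc4s and Ptgs1 and below them for Rgs13, and the groups overlap for Dclk1, Pou2f3, Alox5ap and Il25.

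Pou2f3, the transcription factor that specifies tuft cells, was a low-count gene in both genotypes. SHP-KO libraries held 4, 9 and 10 counts and WT libraries 20, 12 and 15. Scaled to depth this gave 0.509, 0.984 and 1.15 CPM in SHP-KO, against 1.46, 1.05 and 1.13 CPM in WT. The highest SHP-KO library lay above 2 of the 3 WT libraries. The log2 fold change was -0.45 (SE 0.38), with an approximate 95% interval of -1.19 to 0.29 (adjusted p 0.285, edgeR), so a clear fall and no change both lie inside it. Pou2f3 lies on chromosome 9 (42932022 to 43013838, minus strand, mm9) with 13 exon intervals.

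Dclk1, a microtubule-associated kinase widely used as a tuft cell marker, was lower in SHP-KO on average but varied most among the 5 called genes. SHP-KO libraries had 18, 43 and 31 counts, or 2.29, 4.70 and 3.55 CPM, and WT libraries had 46, 69 and 82 counts, or 3.36, 6.05 and 6.20 CPM. WT replicate 1 lay below 2 of the 3 SHP-KO libraries, so the groups overlap. The coefficient of variation (CV) between libraries was 34.3% in SHP-KO and 30.7% in WT, where counting alone would give 18.1% and 12.3% at these depths. The log2 fold change was -0.53 (SE 0.22, adjusted p 0.0285, edgeR). The call was lost without SHP-KO replicate 1 (adjusted p 0.201), SHP-KO replicate 3 (0.0933), WT replicate 2 (0.0910) or WT replicate 3 (0.150) in edgeR, and over 15 alternatives the adjusted p ran from 0.000513 to 0.201. Without SHP-KO replicate 1 the log2 fold change was -0.32, and without SHP-KO replicate 2 it was -0.80. Dclk1 (chromosome 3, 55046448 to 55342990, plus strand, mm9) is also known from neurons, and 7 of 8 tested markers of enteric neurons and glia rose in the same libraries while Ret fell, with summed levels of 48.1 to 50.2 CPM in SHP-KO and 16.9 to 19.9 CPM in WT. The glial markers Gfap and Sox10 had no count in 1 WT library each, and no marker was at 0 in a whole group. Their part in the Dclk1 result was not tested.

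Trpm5, the calcium-activated channel that depolarises tuft and taste cells, rose in SHP-KO. SHP-KO libraries had 87, 111 and 99 counts, or 11.1, 12.1 and 11.3 CPM. WT libraries had 71, 59 and 57 counts, or 5.19, 5.17 and 4.31 CPM. Every SHP-KO library lay more than 2-fold above the highest WT library, and the CV between libraries was 4.82% in SHP-KO and 10.3% in WT, below the 10.1% and 12.7% that counting gives. The log2 fold change was 1.24 (SE 0.14, adjusted p 1.04e-12, edgeR), a 2.36-fold rise, and it stayed between 1.15 and 1.28 under the 15 alternatives, with the call kept in each. Trpm5 lies on chromosome 7 from 150257434 to 150280547 (minus strand, mm9) with 25 exon intervals. It is also known from some enteroendocrine cells, whose 9 listed markers all rose, with sums of 428 to 440 CPM in SHP-KO and 128 to 132 CPM in WT. Their part in the Trpm5 result was not tested.

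Rgs13, a regulator that speeds the shutdown of G protein signals, fell 3.15-fold. SHP-KO libraries had 10, 10 and 9 counts, or 1.27, 1.09 and 1.03 CPM. WT libraries had 49, 37 and 51 counts, or 3.58, 3.24 and 3.85 CPM. The groups were far apart, with -1.65 as log2 fold change (SE 0.28, adjusted p 2.23e-07, edgeR), between -1.74 and -1.59 under the alternatives. Its 6 exon intervals lie between 145985797 and 146024502 on chromosome 1 (minus strand, mm9). Rgs13 is also a gene of germinal centre B cells and mast cells. All 10 listed B cell markers fell, to sums of 1.49 to 2.55 CPM in SHP-KO, against 90.3 to 98.1 CPM in WT, and Cr2, Faim3 and Fcer2a had no count in SHP-KO. Of 5 tested germinal centre markers 3 fell, among them Gcet2 and S1pr2, while Bcl6 rose and Basp1 did not pass (adjusted p 0.0504, edgeR). Gcet2 had 2, 0 and 0 counts in SHP-KO and 26, 31 and 17 in WT. The germinal centre list as a whole summed to 18.4 to 19.7 CPM in SHP-KO and 18.9 to 19.7 CPM in WT, most of it Bcl6. Among 11 mast cell markers Mcpt4, Tpsab1, Fcer1a and Ms4a2 had no count in any library, and the list summed to 4.20 to 6.76 CPM in SHP-KO and 3.77 to 6.27 CPM in WT. The part of B cells in the Rgs13 result was not tested.

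Alox5ap, Ltc4s and Ptgs1 serve to make the lipid mediators of tuft cells. Alox5ap, the 5-lipoxygenase-activating protein, presents arachidonic acid to the enzyme that starts leukotriene synthesis, and Ltc4s then joins the product to glutathione to give leukotriene C4. Ptgs1, the constitutive cyclooxygenase, opens the prostaglandin branch. Both Ltc4s and Ptgs1 rose, while Alox5ap, the partner of Ltc4s, had a log2 fold change of -0.31 that did not pass.

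Ltc4s had 91, 95 and 94 counts in SHP-KO libraries, or 11.6, 10.4 and 10.8 CPM. In WT libraries it had 64, 72 and 73 counts, or 4.67, 6.31 and 5.52 CPM. The groups stood apart and the log2 fold change was 0.99 (SE 0.14, adjusted p 2.07e-09, edgeR), within 0.88 to 1.09 under the alternatives. The gene is short, with 588 exonic bases between 50049974 and 50051973 on the minus strand of chromosome 11 (mm9). Ltc4s and Alox5ap are also known from macrophages and mast cells. Of 11 tested macrophage and dendritic cell markers, 2 rose, 4 fell and 5 did not pass. The list summed to 69.6 to 74.8 CPM in SHP-KO and 130 to 132 CPM in WT, with no marker at 0. The difference between these sums rests mostly on Lyz2, at 12.3 ± 1.36 CPM in SHP-KO and 72.4 ± 0.87 CPM in WT (SD, n = 3). The part of these cells in the Ltc4s and Alox5ap results was not tested.

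Alox5ap had 12, 18 and 22 counts in SHP-KO libraries, or 1.53, 1.97 and 2.52 CPM. In WT libraries it had 34, 30 and 32 counts, or 2.48, 2.63 and 2.42 CPM. SHP-KO replicate 3 lay above 2 WT libraries, and the log2 fold change of -0.31 had an approximate 95% interval of -0.83 to 0.21 (adjusted p 0.294, edgeR). Alox5ap lies on chromosome 5 (150076634 to 150099623, plus strand, mm9).

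Ptgs1 had 57, 81 and 82 counts in SHP-KO libraries, or 7.25, 8.86 and 9.40 CPM. In WT libraries it had 75, 62 and 76 counts, or 5.48, 5.44 and 5.74 CPM. All SHP-KO libraries lay above all WT libraries, and the log2 fold change was 0.62 (SE 0.15, adjusted p 0.000168, edgeR). With an exact test and an assumed biological CV of 0.2 it did not pass (adjusted p 0.0742, edgeR, in a range of 7.45e-05 to 0.0742 over all alternatives). Ptgs1 (chromosome 2, 36085946 to 36107789, plus strand, mm9) is also known from endothelium, platelets and stromal cells. All 8 listed smooth muscle markers rose, with sums of 997 to 1046 CPM in SHP-KO and 208 to 213 CPM in WT. Of 5 tested endothelial markers 3 rose, Tie1 fell and Pecam1 did not pass, with sums of 15.8 to 17.3 CPM in SHP-KO and 10.6 to 12.6 CPM in WT, and no endothelial marker at 0. Of 4 platelet markers Gp9 and Ppbp had no count in any library and Itga2b, the 1 tested, rose. Pf4 had 6 counts in all SHP-KO and 4 in all WT libraries. The platelet sums, 9.85 to 10.9 CPM in SHP-KO and 2.63 to 2.99 CPM in WT, were nearly all Itga2b. The part of these cells in the Ptgs1 result was not tested.

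Il25, the cytokine by which tuft cells activate innate lymphoid cells, had too few counts to be tested. SHP-KO libraries held 2, 0 and 0 counts and WT libraries 1, 3 and 4. The 2 and 8 summed counts give a ratio of 0.372 for SHP-KO over WT at equal depth, with an exact 95% counting interval of 0.0385 to 1.87 that covers counting error only. A difference of Il25 between the genotypes was not detectable at this depth. The gene has 3 exons between 55551532 and 55554673 on the plus strand of chromosome 14 (mm9).

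Ratios of raw counts within a library do not depend on how libraries are scaled. Trpm5 over Dclk1 was 4.83, 2.58 and 3.19 in SHP-KO libraries, against 1.54, 0.855 and 0.695 in WT libraries. Trpm5 over Rgs13 was 8.70, 11.1 and 11 in SHP-KO, against 1.45, 1.59 and 1.12 in WT. Ltc4s over Alox5ap was 7.58, 5.28 and 4.27 in SHP-KO, against 1.88, 2.40 and 2.28 in WT. For these 3 pairs the genotypes do not overlap. Each pair sets a gene called higher over a gene with a negative log2 fold change, so this separation follows largely from the per-gene values above. Ltc4s over Trpm5 was 1.05, 0.856 and 0.949 in SHP-KO and 0.901, 1.22 and 1.28 in WT, values that overlap. These 4 ratios were compared by their values, with no test beyond the per-gene ones above.

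**Figure D2:**
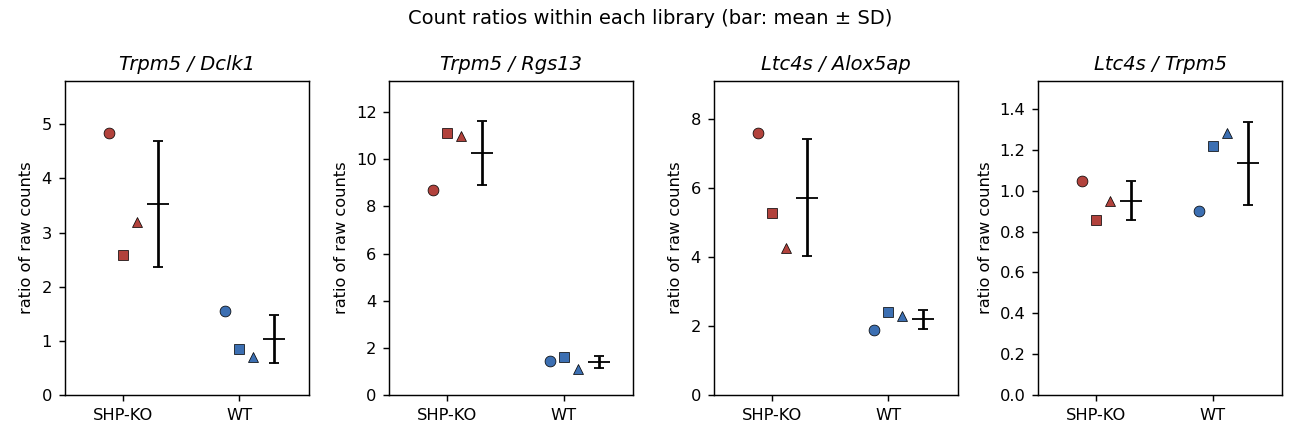
Ratios of raw counts of 2 tuft cell genes within each library (vertical axes from 0, linear), for 3 SHP-KO and 3 WT libraries, with bars for mean ± SD. The ratios Trpm5/Dclk1, Trpm5/Rgs13 and Ltc4s/Alox5ap are higher in every SHP-KO library than in any WT library, and Ltc4s/Trpm5 overlaps.

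Levels of different genes were compared per kilobase of exon. Ltc4s was the most abundant of the 8 in both genotypes, at 18.6 ± 1.03 CPM per kilobase in SHP-KO and 9.36 ± 1.39 in WT (SD, n = 3). In SHP-KO it was followed by Ptgs1 (2.97 ± 0.39), Trpm5 (2.63 ± 0.13) and Alox5ap (2.35 ± 0.58), whose neighbours overlap, then by Rgs13 (0.757 ± 0.084), Pou2f3 (0.349 ± 0.13), Dclk1 (0.271 ± 0.093) and Il25 (0.0798 ± 0.14), of which Pou2f3 and Dclk1 overlap, as do Dclk1 and Il25. In WT the order was Ltc4s, Alox5ap (2.94 ± 0.13), Rgs13 (2.38 ± 0.20), Ptgs1 (1.94 ± 0.058), Trpm5 (1.12 ± 0.11), Pou2f3 (0.482 ± 0.086), Dclk1 (0.400 ± 0.12) and Il25 (0.20 ± 0.12). There each gene down to Trpm5 stood clear of its neighbour, and Pou2f3, Dclk1 and Il25 overlapped in turn. Rgs13 ranked 5 in SHP-KO and 3 in WT, and Trpm5 ranked 3 in SHP-KO and 5 in WT. The length of Dclk1, 12995 bases, is the union of 84 exon records, so that its level per kilobase is a low estimate if shorter isoforms prevail.

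**Figure D3:**
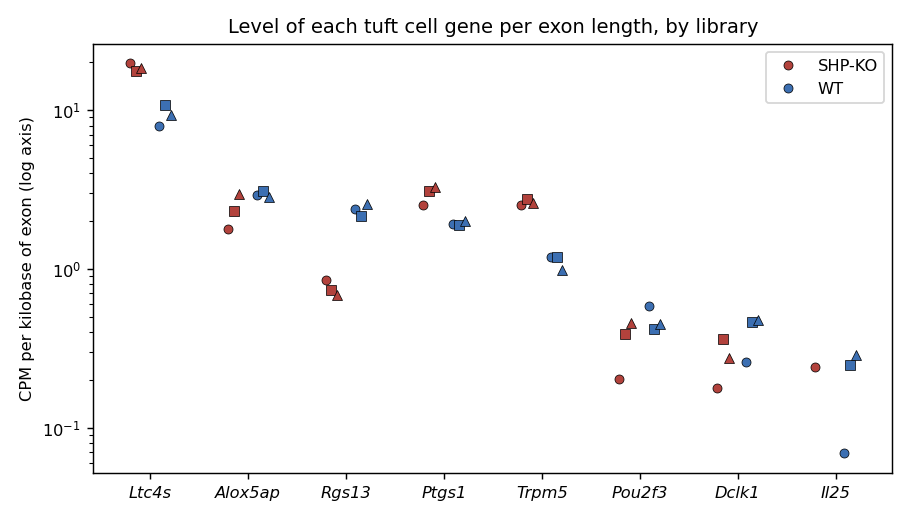
CPM per kilobase of exon (vertical log axis) of the 8 tuft cell genes in 3 SHP-KO and 3 WT libraries, ordered by the WT mean. Ltc4s is highest in both genotypes; Il25 in SHP-KO replicates 2 and 3 had no count and is not drawn.

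A wider list of 30 tuft cell genes, picked like the 8 with earlier results of these data known, held changes in both directions as well. Of 29 in the files 21 were tested, of which 3 rose and 7 fell, and the other 11 missed the threshold. These are 14.3% higher and 33.3% lower (47.6% called), beside 35.2%, 35.4% and 70.6% of all tested genes. No share among genes of like counts was computed for this list, so lower counts may account for part of that gap. The median log2 fold change was -0.21, against -0.01 over all tested genes. Summed over the 29, the level was 142 to 151 CPM in SHP-KO and 180 to 191 CPM in WT. That difference rests on Spib and Kctd12: without them the sums overlap, at 129 to 138 CPM in SHP-KO and 132 to 136 CPM in WT. The largest fall was that of Spib, an Ets-family transcription factor shared by tuft cells, B cells and M cells, at 5.62 ± 1.35 CPM in SHP-KO and 27.8 ± 1.5 CPM in WT (SD, n = 3; log2 fold change -2.30, SE 0.12, adjusted p 3.19e-32, edgeR). Kctd12, an auxiliary subunit of GABA-B receptors, fell 3.09-fold, and Lrmp, an endoplasmic reticulum membrane protein of tuft cells and lymphocytes, fell 1.77-fold.

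The leukocyte signalling genes Vav1, Ptpn6 and Pik3r5, which tuft cells also use, had log2 fold changes of -0.45, -0.43 and -0.54 and passed. All 10 B cell markers fell in these libraries as given above, and their part in these falls was not tested. None of these 3 passed in the exact test with the assumed CV of 0.2. The calls of Vav1 and Pik3r5 were also lost with DESeq2 (adjusted p 0.0612 and 0.0627) and when single libraries were left out (Vav1 without SHP-KO replicate 2 or WT replicate 1, adjusted p 0.0549 and 0.0533; Pik3r5 without SHP-KO replicate 3, adjusted p 0.0527; edgeR). Ptpn6 encodes the phosphatase SHP-1, which is unrelated to the nuclear receptor SHP.

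The 3 that rose were 1810046K07Rik, Skap2 and Matk. 1810046K07Rik had 14.3 ± 2.40 CPM in SHP-KO and 7.34 ± 0.61 CPM in WT (SD, n = 3; log2 fold change 0.96, SE 0.13, adjusted p 1.61e-10, edgeR). Skap2, an adaptor protein of Src-family kinase signalling, had a log2 fold change of 0.68, and Matk, a kinase that restrains Src-family kinases, one of 0.49 whose call was lost without WT replicate 2 (adjusted p 0.0565, edgeR), with DESeq2 (0.0592) and in the exact test (0.197). The next genes of this list are named after their values were seen, for roles close to those of the 8. They did not pass: Il17rb, the receptor subunit for IL-25, had 3.15 ± 0.82 CPM in SHP-KO and 3.61 ± 0.23 CPM in WT, and Avil, an actin-binding protein used as a tuft marker, had a log2 fold change of 0.26 (SE 0.19). Siglecf, a sialic acid receptor of tuft cells and eosinophils, had -0.45 (SE 0.28). Another 8 listed genes, among them Gfi1b with 6 counts in all SHP-KO and 15 in all WT libraries and Chat with 10 and 9, were too low to test.

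**Figure D4:**
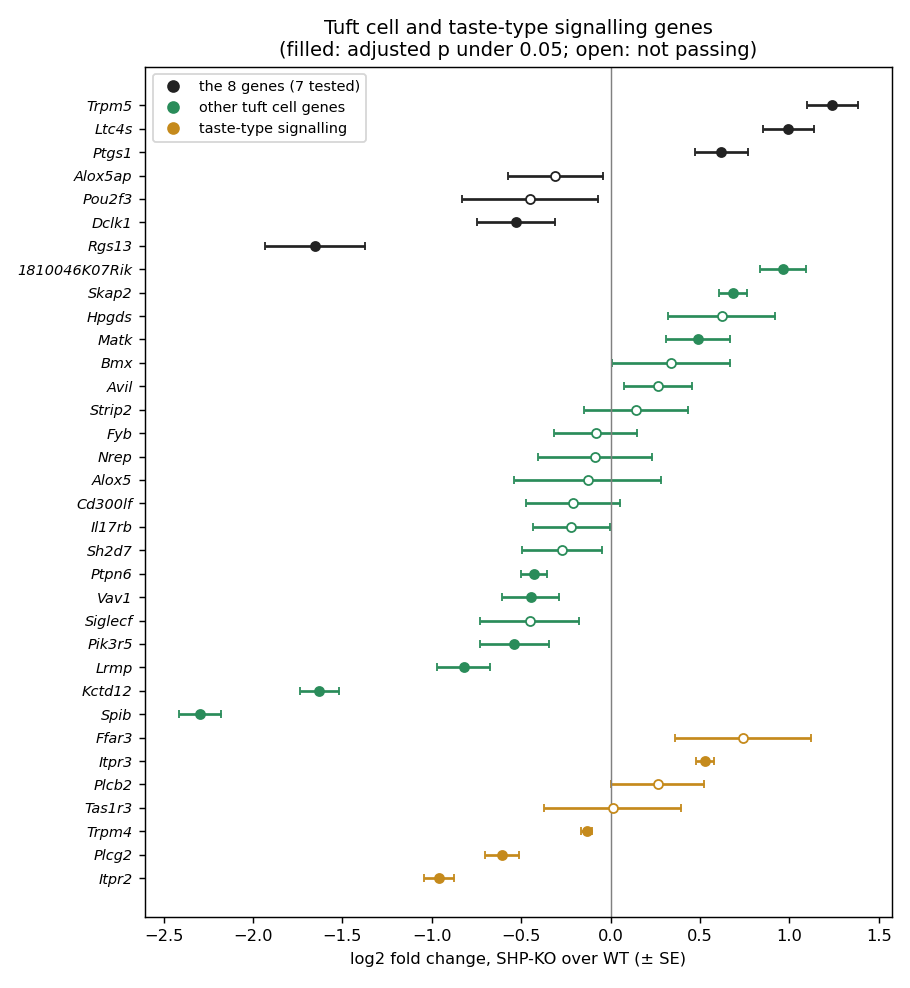
Log2 fold change of SHP-KO over WT (horizontal axis) with its SE for tested tuft cell genes and taste-type signalling genes; filled points passed an adjusted p of 0.05 and open points did not. Values run from -2.30 for Spib to 1.24 for Trpm5, on both sides of 0 in each of the 3 groups.

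Taste-type signalling, which leads from a receptor through a G protein and phospholipase C to Trpm5, showed no shared direction. Of 12 listed genes 7 were tested, of which 1 rose, 3 fell and 3 missed the threshold (median log2 fold change 0.01). Over all tested genes 35.2% were called higher and 35.4% lower. Itpr2 and Itpr3, the calcium release channels of the endoplasmic reticulum, moved apart, at 16.8 ± 1.24 CPM in SHP-KO and 32.6 ± 0.72 CPM in WT for Itpr2 and 99.1 ± 4.27 CPM in SHP-KO and 68.8 ± 4.95 CPM in WT for Itpr3 (SD, n = 3; log2 fold changes -0.96 and 0.53). Plcg2, a phospholipase C, fell by 0.61 on the log2 scale, and Trpm4, the close relative of Trpm5, by 0.13 (SE 0.03). Plcb2, the phospholipase of the taste cascade, had a log2 fold change of 0.26 (SE 0.26), and Ffar3, a receptor for short-chain fatty acids, one of 0.74 (adjusted p 0.0749, edgeR). Gnat3, which encodes the taste G protein alpha-gustducin, was too low for the test and is named after its values were seen. It had 1, 1 and 1 counts in SHP-KO and 7, 9 and 16 in WT. At equal depth WT libraries thus held 7.16 times as many. The exact 95% counting interval was 2.24 to 36.5 and covers counting error only. In the authors' deposited table Gnat3 has a log2 fold change of -2.74 and an adjusted p of 0.000834, from edgeR.

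Around the 3 lipid mediator genes, 18 genes of leukotriene and prostaglandin synthesis, breakdown and sensing were listed and 12 tested. Of these 3 rose, 2 fell and 7 did not pass (median log2 fold change 0.19), where 70.6% of all tested genes were called. Ltb4r1, a receptor for leukotriene B4, rose to 21.5 ± 0.73 CPM in SHP-KO, against 6.33 ± 0.74 CPM in WT (SD, n = 3; log2 fold change 1.77). Lta4h, which makes leukotriene B4, was 1.18-fold higher, and Ptgis, the prostacyclin synthase, rose at low counts (43 in all SHP-KO and 17 in all WT libraries, log2 fold change 1.88). Hpgd, which inactivates prostaglandins, fell 3.14-fold, and Dpep1, which trims leukotriene D4, fell 1.61-fold. Alox5, the lipoxygenase that Alox5ap serves, is named after its values were seen. It had 1, 13 and 10 counts in SHP-KO and 13, 15 and 11 in WT and did not pass. Hpgds, the prostaglandin D2 synthase of tuft cells, missed the threshold at an adjusted p of 0.0570 (edgeR; log2 fold change 0.62, SE 0.30), and passed without SHP-KO replicate 1 (adjusted p 0.0398) or WT replicate 2 (adjusted p 0.0448).

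Type 2 cytokines that act downstream of IL-25 were at or near 0 counts. Il13 and Il5 had no count in any of the 6 libraries. Il4 had 1 count in all SHP-KO and 3 in all WT libraries. Retnlb, a gene of the type 2 list that is not a cytokine of this kind, also had no count. Of 14 listed type 2 genes 5 were tested: Stat6, the transcription factor of IL-4 and IL-13 signalling, rose (log2 fold change 0.26), Il4ra, their shared receptor subunit, fell (log2 fold change -0.23), and Il17rb, Il13ra1 and Areg did not pass. Among all tested genes 70.6% were called. Il1rl1, the IL-33 receptor, is named after its values were seen, with 12, 14 and 8 counts in SHP-KO and 5, 1 and 1 in WT. Its count ratio of SHP-KO over WT was 7.24, with an exact 95% counting interval of 3.16 to 19.3 that covers counting error only. The authors' deposited table gives Il1rl1 a log2 fold change of 2.77 and an adjusted p of 1.72e-05, from edgeR.

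Of 10 tested relatives of the 8 genes, 4 rose, 4 fell and 2 missed the threshold, where 70.6% of all tested genes were called. Dclk3, a kinase related to Dclk1, fell to 0.950 ± 0.51 CPM in SHP-KO, against 3.51 ± 0.56 CPM in WT (log2 fold change -1.85), and Pou2af1, a B cell coactivator of POU factors, had a log2 fold change of -3.42. Mgst1 and Mgst2, membrane glutathione transferases of the family that holds Ltc4s and Alox5ap, had log2 fold changes of -0.69 and 0.30. Pou2f1, the widely expressed relative of Pou2f3, had one of 0.45. Some genes stand on several lists, so the counts of called genes per list are not independent of each other. Trpm4 is also on the taste-type signalling list and Ptges on the leukotriene and prostaglandin list. Alox5, Hpgds and Il17rb are on the wider tuft cell list and on a later one. Gip is listed for enteroendocrine cells and for upper small intestine.

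Genes with the most similar profile over the 6 libraries were sought by the root mean square distance of log2 CPM, centred on each gene's mean. For Trpm5 the nearest were Eno3 and Tlcd2 (distance 0.0568 and 0.0574), for Ltc4s Atp8a1 and Nr6a1 (0.0539 and 0.0566), for Ptgs1 Adam19 and Jmjd8 (0.0385 and 0.0463), for Rgs13 Asah1 and Mpzl2 (0.0522 and 0.0568), and for Dclk1 Cdyl2 and Rsl1 (0.148 and 0.167). None of these is on the tuft cell lists. Within a distance of 0.2 there were 1669 tested genes for Ptgs1, 638 for Ltc4s, 476 for Trpm5, 211 for Rgs13 and 8 for Dclk1.

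Markers of other secretory epithelial cells were measured in the same libraries. The 6 goblet cell markers in the files and the 9 enteroendocrine markers all rose, and of 4 Paneth cell markers 3 fell and 1 did not pass. Over all tested genes 35.2% were called higher and 35.4% lower. The summed level of the 8 tuft cell genes was 35.8 to 40.1 CPM in SHP-KO and 26.3 to 30.2 CPM in WT, a sum made mostly of Trpm5, Ltc4s and Ptgs1. No test of a difference between these lists was made.

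**Figure D5:**
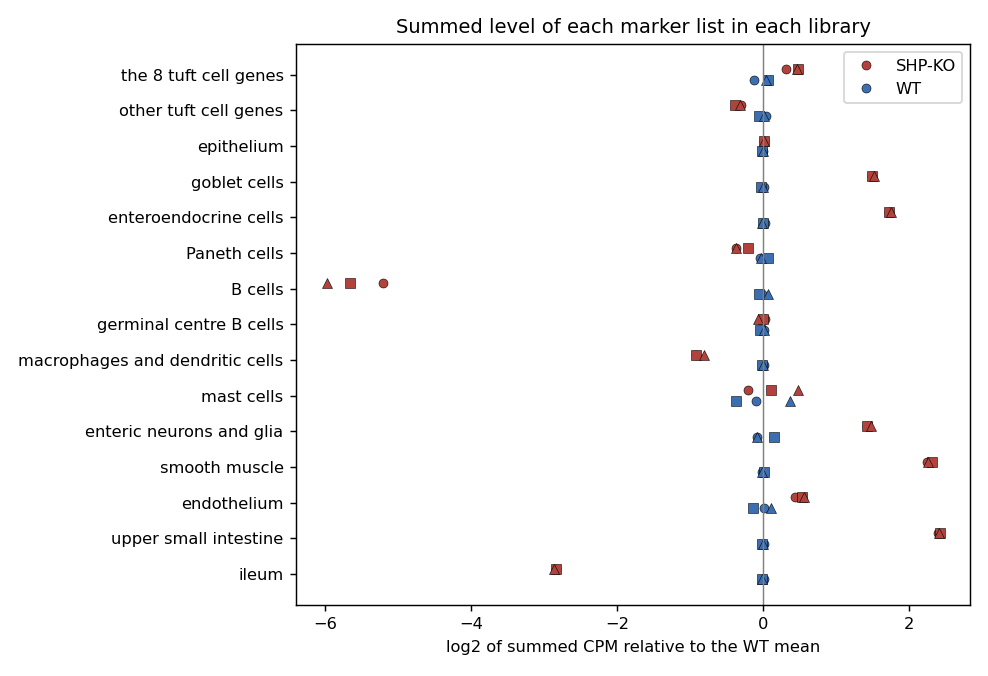
Log2 of the summed CPM of each marker list relative to its WT mean (horizontal axis), for 3 SHP-KO and 3 WT libraries. The 8 tuft cell genes and the wider tuft cell list lie close to 0 on opposite sides, epithelial markers lie at 0, and B cell markers are lowest in SHP-KO.

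In the authors' deposited table, which lists 7 of the 8 genes, 3 had an adjusted p under 0.05, beside 34.6% of the 12939 genes of that table (19.0% higher and 15.6% lower in SHP-KO). These were Trpm5 (log2 fold change 1.22, adjusted p 7.46e-05 in the authors' deposited table from edgeR), Ltc4s (0.97, adjusted p 0.00208) and Rgs13 (-1.67, adjusted p 4.98e-05). Ptgs1, Dclk1, Pou2f3 and Alox5ap had adjusted p-values of 0.0791, 0.130, 0.467 and 0.527 in the authors' deposited table from edgeR.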

How the data were processed

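For each library the authors deposited raw counts by gene. Per the file headers these counts come from featureCounts 1.5.2, which summed exons of mm9 genes and ignored strand, and reads of a gene and its antisense partner then cannot be told apart. STAR 2.6.0c, Trimmomatic 0.38, bcl2fastq 2.17.1.14 and FastQC 0.11.5 are named in the submitters' processing notes. Reads were 100 bp, per the labels. A comparison of SHP-KO with WT deposited by the authors gives log2 fold changes, log2 mean CPM, p-values and adjusted p-values. Those notes also name edgeR.

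Counts of 12106 genes that passed filterByExpr (minimum count 10) entered the robust quasi-likelihood test of edgeR 4.0.16 (R 4.3.3) after TMM scaling, with Benjamini-Hochberg adjustment over all tested genes and a threshold of 0.05. SE values were derived from that fit, and an approximate 95% interval is the estimate ± 1.96 SE. CPM were computed with TMM-scaled library sizes. Intervals of count ratios are exact and cover counting error only. The test was also run on simulated counts in which only a small share of genes was changed, unlike these data. The outcome is not given here, and it cannot vouch for the test where most genes are called.

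The 8 genes and all lists were chosen with earlier results of these data known. All 8 genes are named; of other lists up to 6 tested genes with the smallest p and every called gene of the wider tuft cell list could be named, with the 2 nearest profiles per called gene. Of the listed genes 3 (Siglecf, Nrep and Strip2) were matched under another symbol of the files, and 3 (Sh2d6, Rgs21 and Muc2) were not analysed here, and 2 tested genes of the lists are counted but not reported here by name. The 15 alternatives included DESeq2 1.42.0 and limma 3.58.1 (voom). Figures used matplotlib 3.10.9.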

Additional observations from a re-analysis of the deposited data

How the results depend on the processing

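Trpm5, Ltc4s and Rgs13 kept their direction and their call under all 15 alternatives, and Ptgs1 under 14, the exception being the exact test with an assumed CV of 0.2. Pou2f3 and Alox5ap kept a negative sign and did not pass in any alternative that tested them (both failed the stricter filter of 30 counts). Dclk1 kept its sign in all 15 and its call in 8. The number of the 8 genes called lower, 2, was 1 with DESeq2, 1 with limma-voom and 1 with the exact test, and 1 to 2 when single libraries were left out, Dclk1 being the gene lost, and the cause was not tested. The number called higher was 3, and 3 to 3 when single libraries were left out. With the exact test 4041 genes were called in place of 8543 and 3 in place of 7 genes of the wider tuft cell list were lower; it changes both the test and the dispersion, and the cause was not tested. DESeq2 called 2 genes of that list higher and 5 lower. Library numbers shared between genotypes are not stated to pair the samples. Same-numbered libraries deviated from their group means at correlations of 0.018, 0.021 and -0.006. Such values cannot show how the libraries were matched, so a pairing remains unknown. With the replicate number as a block 8573 genes were called and the adjusted p of Dclk1 was 0.00657 (edgeR), with no call among the 8 genes changed. Without a filter on low counts Il25 had an adjusted p of 0.335 (edgeR). Depth limits Il25, Gnat3 and Pou2f3, which had 10, 35 and 70 counts in all 6 libraries, and listed genes with fewer counts still.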
